A study of Rattus norvegicus with 20 samples.

Results

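Platelets and the megakaryocytes that shed them were followed through 33 of their characteristic genes in whole blood of 20 Wistar rats. The list was fixed by name, and a gene counted as measured where a probe on the array carried its name or its current RefSeq symbol, with the brightest probe standing for the gene. Probes were found for 31 of the 33 genes, and 30 were bright enough to be tested, among 15234 tested genes of 26246 with a probe. No probe was matched to Itga2b or Gp6, and both probes of Pdgfb, a growth factor of the platelet granule, were too dim, being well above background on 3 and 0 of the 20 arrays.

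Reflux esophagitis had been induced by surgery in 4 of the 5 groups of 4 rats, and blood was drawn into RNA-preserving tubes at the end of the study. The sham group had a sham operation and no drug. The untreated group had esophagitis and no drug. The other groups had esophagitis and received the herbal preparation STW5 at 0.5 ml/kg, STW5 at 2 ml/kg, or the proton pump inhibitor omeprazole at 30 mg/kg, starting 7 days ahead of surgery and going on for 10 days afterwards. Each rat gave 1 array, so all tests measure the spread between 4 rats a group. The sham and untreated arrays shared slide 1, both STW5 doses shared slide 2 and omeprazole had slide 3, so that any comparison other than untreated against sham and dose against dose also compares slides, and slide and treatment cannot be told apart there. The dose titles of the STW5 arrays are in doubt, as the group numbers in the titles run opposite to those in the study's design. In addition 8 columns of the deposited value table, those of STW5, hold the array of the other dose.

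Platelets have no nucleus and carry RNA inherited from the megakaryocyte. Their surface holds the von Willebrand factor receptor (Gp1ba, Gp1bb, Gp5 and Gp9) and the fibrinogen receptor, of which Itgb3 is a subunit, and their alpha-granules hold chemokines, clotting proteins and growth factors that are released when agonists such as ADP and thromboxane bind their receptors. A level below is log2 of a gene's signal on an array, with 0 at the 75th percentile of that array's spots, which had signals of 71.3 to 308. Between 43.1% and 57.4% of the probes on an array were well above background.

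The measured genes that define the platelet had mean levels above 0, some far above it. Pf4, the platelet factor 4 chemokine, had a mean level of 8.87, Gp1bb of 7.99 and Gp9 of 5.00. Ppbp, the precursor of a second platelet chemokine, had 1.67 and Tubb1 had 0.94. All of these were well above background on 20 of 20 arrays. At the dim end Gp1ba and Gng11, a G protein gamma subunit, were well above background on 10 arrays, and P2ry1 and Thbs1 on 12. Several pairs of members lie next to each other in the genome, with no other protein-coding gene between them in the RefSeq annotation: Selp and F5, Pf4 and Ppbp, and Cd9 and Vwf. None of the 30 probes used matched a probe of another gene over 30 or more identical bases.

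What was read for Selp depended on the probe. Selp encodes P-selectin, the adhesion protein that moves from the granule to the platelet surface on activation and is also made by endothelial cells. The array holds a pair of Selp probes that start 4 bases apart on the plus strand of chromosome 13, at chr13:79922078-79922137 and chr13:79922082-79922141 of the rn4 build in the scanner files. They are shown because they cover nearly the same stretch yet read very differently, and capitals mark the 8 of 56 shared positions at which their letters differ.
Selp, first probe: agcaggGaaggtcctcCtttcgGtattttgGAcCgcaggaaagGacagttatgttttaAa
Selp, second probe: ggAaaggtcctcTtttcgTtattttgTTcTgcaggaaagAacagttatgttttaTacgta
The first probe was well above background on 0 of 20 arrays and the second on 20, and every Selp value below comes from the second. Why the pair read so differently was not tested. The other members with several tested probes were Vwf, Gp1bb, Mylk and Pdgfa. Their probes moved the same way in untreated against sham, with changes for Vwf of 0.83, 1.00 and 0.72 on the log2 scale, except that Pdgfa gave 0.03 with its brighter probe and 2.40 with the dimmer one.

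The clearest pattern of these genes was that most of them rose and fell together from rat to rat inside the groups. Gp9, a subunit of the von Willebrand factor receptor, served as the reference, because Itga2b, the gene first intended, had no matched probe. For each other gene the slope on the Gp9 level was fitted with limma, group means taken out and the array median of all genes subtracted from both. The slope passed an adjusted p of 0.05 for 17 of the other 29 members, all positive, against 3.41% of all 15233 genes (3.3% positive). The median r with Gp9 was 0.72 over the 29 members and -0.07 over all genes. In blood a rat with fewer platelets and a rat with less of these RNAs per platelet cannot be told apart.

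**Figure D1:**
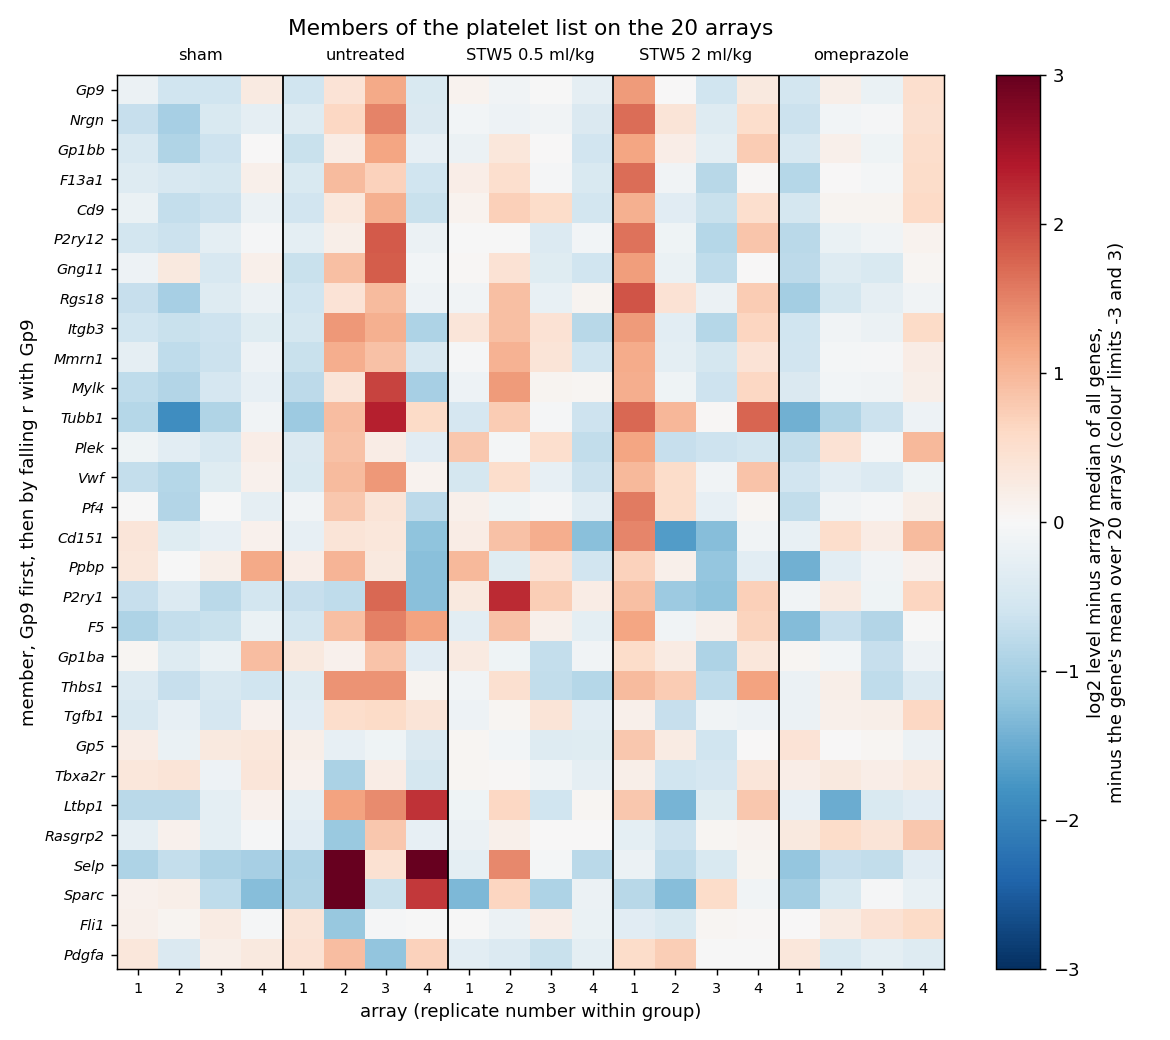
Level of the 30 tested members (rows, Gp9 first and then by falling r with Gp9) on each of the 20 arrays (columns, by group), as log2 level minus the array's median of all genes and minus the gene's mean over the arrays. Untreated arrays 2 and 3 and STW5 2 ml/kg array 1 show most members high at once (member medians 0.71, 0.91 and 1.08). Selp and Sparc are highest on untreated arrays 2 and 4, and untreated array 4 has a member median of -0.29.

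By role, the slope was called for 4 of 6 tested adhesion receptors and tetraspanins, 5 of 12 alpha-granule genes, 6 of 8 agonist receptors and signalling genes, 2 of 2 cytoskeletal genes and 0 of 1 transcription factor. Nrgn, a calmodulin-binding protein, followed Gp9 most closely of the members. Its levels were 3.76 to 4.63 in sham, 4.29, 4.49, 5.34 and 6.12 in untreated, 4.35 to 4.78 at STW5 0.5 ml/kg, 4.43 to 6.62 at 2 ml/kg and 4.20 to 5.15 with omeprazole. Gp9 ran from 4.36 to 5.35, then 4.48, 4.49, 5.34 and 5.97 in untreated, 4.70 to 5.19, 4.41 to 6.44 and 4.49 to 5.38 in the same order of groups. The same 2 arrays, untreated array 3 and STW5 2 ml/kg array 1, were highest for both genes. Within groups Nrgn and Gp9 had an r of 0.96 and a rho of 0.88 over 20 arrays (permutation p 4e-05 and 4e-04, limma adjusted p 4.82e-04). With those 2 arrays dropped r was 0.92, but the deviations were still taken from group means that included them. The 2 arrays therefore still affect this r.

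Gp1bb, which pairs with Gp1ba in the receptor, had an r of 0.93 with Gp9, and F13a1, the clot cross-linking factor XIII A chain, had 0.90. Cd9, a tetraspanin of the platelet surface, and P2ry12, the ADP receptor that antiplatelet drugs block, both had 0.89. Rgs18, a brake on G protein signalling, had 0.83, Mylk, the kinase of myosin light chain, 0.81, Tubb1, the beta-tubulin of the platelet's marginal band, 0.80, Pf4 0.76 and Vwf 0.77. Without the 2 arrays that lie farthest from the median in Gp9, these r values ran from 0.69 to 0.90. Here too the group means taken out still included those 2 arrays. All 29 relations were computed in 1 family, and the fit adjusted its p values over all genes. Inside slide 1 alone Nrgn had an r of 0.94 and inside slide 2 of 0.99, and slide 3 held 4 arrays, too few for a value. Leaving out STW5 2 ml/kg array 1 brought the count of called members to 11, of 307 genes in all. With Pf4 in place of Gp9 as the reference, a choice made after the data were seen, 6 of 29 members were called, of 173 genes in all.

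**Figure D2:**
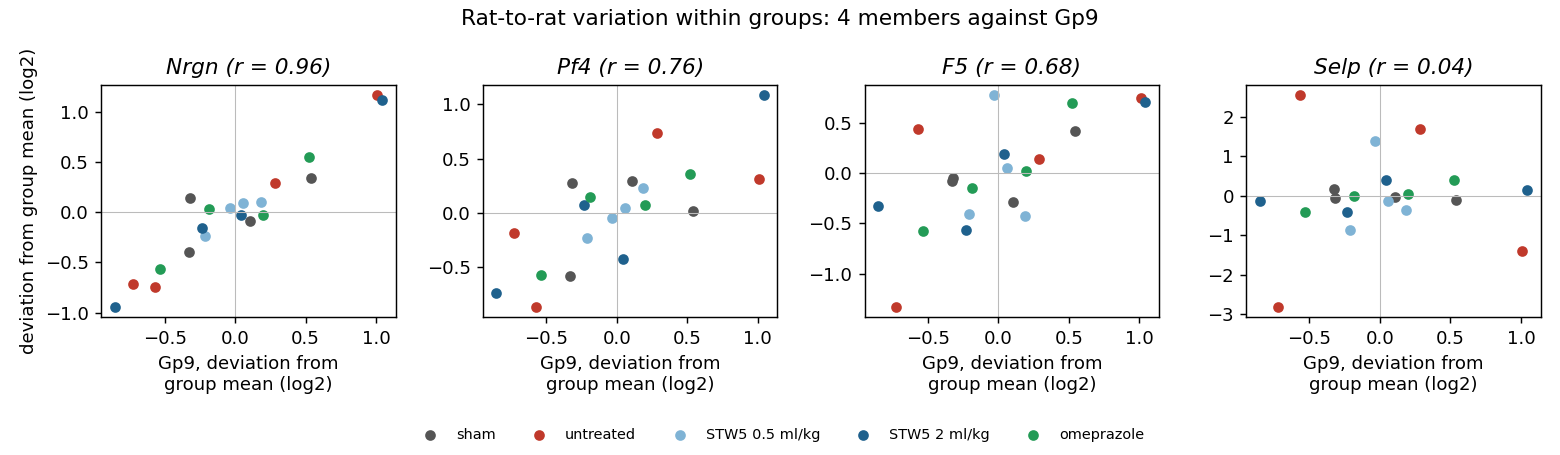
Deviation of Nrgn, Pf4, F5 and Selp from their group means (vertical axes, log2) against that of Gp9 (horizontal axes, log2), 1 point per array and coloured by group. Nrgn lies along a line with an r of 0.96, Pf4 and F5 spread more at 0.76 and 0.68, and Selp shows no line at 0.04.

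The 12 members without a called slope were not of 1 kind. Gp1ba, F5, Thbs1 and Tgfb1 had r values of 0.66, 0.68, 0.65 and 0.64, with adjusted p from 0.0685 to 0.299. Gp5 and Tbxa2r, the thromboxane receptor, both had 0.40, Ltbp1 0.33 and Rasgrp2, the exchange factor that switches on integrins, 0.27. Selp had 0.04, Sparc -0.06, Fli1, an ETS transcription factor of megakaryocytes that is also made in other blood cells, -0.24, and Pdgfa -0.30.

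Platelet genes outside the list were tested from a further list of 89 measured genes. With 3.3% of all genes called positive, 30 of these 89 had a called slope on Gp9, all positive. They included Treml1, a receptor of the alpha-granule membrane (r 0.89), P2rx1, the ATP-gated channel (0.91), F2rl2, a thrombin receptor (0.91), and Ptgs1, the cyclooxygenase that makes thromboxane precursors (0.87). These lie near the top of the further list, as the median r of all 89 genes was 0.44. Receptors and surface proteins were called for 9 of 22, signalling genes for 9 of 23 and granule genes for 4 of 19. Cytoskeletal genes were called for 7 of 13 and other transcription factors for 1 of 12, Tal1. Marker genes of other blood cells were not called: 0 of 15 erythroid, 0 of 15 neutrophil, 0 of 13 monocyte, 0 of 14 T cell, 0 of 11 B cell, 0 of 7 NK cell and 0 of 9 endothelial genes. Of all genes 3.41% were called. Median r over these marker lists ran from -0.24 in T cells to 0.28 in neutrophils. The array's 75th percentile had an r of 0.06 with Gp9 within groups.

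Promoters of the 3 genes at the top of this pattern are shown, Gp9 and the 2 members closest to it. Each runs from 250 bases before the start of the gene to 50 after it, from RefSeq on GRCr8. Capitals mark the letters GATAA or TTATC, the core bound by GATA factors, and GGAAG or CTTCC, an ETS core, searched on both strands.
Gp9, chr4:121792592-121792891, plus strand: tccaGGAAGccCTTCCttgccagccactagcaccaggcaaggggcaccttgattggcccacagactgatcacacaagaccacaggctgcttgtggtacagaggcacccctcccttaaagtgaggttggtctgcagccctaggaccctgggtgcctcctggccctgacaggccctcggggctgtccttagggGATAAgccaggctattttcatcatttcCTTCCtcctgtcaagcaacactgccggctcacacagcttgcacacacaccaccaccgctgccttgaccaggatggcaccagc
Nrgn, chr8:45452368-45452667, minus strand: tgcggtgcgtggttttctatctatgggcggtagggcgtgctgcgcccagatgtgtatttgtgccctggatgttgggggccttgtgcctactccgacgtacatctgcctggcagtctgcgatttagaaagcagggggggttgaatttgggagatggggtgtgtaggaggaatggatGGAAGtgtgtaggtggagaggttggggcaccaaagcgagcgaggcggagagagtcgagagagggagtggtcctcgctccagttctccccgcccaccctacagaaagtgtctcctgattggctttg
Gp1bb, chr11:95882311-95882610, plus strand: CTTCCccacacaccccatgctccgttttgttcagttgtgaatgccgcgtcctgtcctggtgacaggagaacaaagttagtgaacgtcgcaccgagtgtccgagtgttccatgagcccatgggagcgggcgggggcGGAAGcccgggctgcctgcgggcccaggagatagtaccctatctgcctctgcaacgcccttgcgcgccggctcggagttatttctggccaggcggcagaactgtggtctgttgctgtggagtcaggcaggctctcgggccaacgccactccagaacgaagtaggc
The Gp9 promoter held 1 GATA core and 3 ETS cores, that of Nrgn 0 and 1, and that of Gp1bb 0 and 2. Of the 26 members with a promoter in the table, 9 held a GATA core (34.6%, against 26.1% of all 27457 promoters), 21 an ETS core (80.8% against 70.1%) and 8 both (30.8% against 17.2%). Among the 12 of them with a called slope, 3 held a GATA core and 11 an ETS core.

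Untreated esophagitis was then set against sham, which compares reflux surgery with a sham operation within 1 slide. No member passed (0 of 30, with 0.00656% of all genes called, 1 gene), while 7 of 30 had an unadjusted p below 0.05, against 18.3% of all genes. Of these 6 were higher and 1 lower, against 8.15% and 10.1% of all genes. The log2 change was above 0 for 24 of 30 members and for 37.9% of all genes, and the members' median change was 0.45 against -0.19 over all genes. The 6 members below 0 were Tbxa2r (-0.61, the lower one at an unadjusted p below 0.05), Ppbp (-0.45), Gp5 (-0.42), Fli1 (-0.41), Cd151 (-0.24) and Rasgrp2 (-0.20). Of the alpha-granule genes 11 of 12 were above 0, with a median of 0.70.

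Selp had the largest change. Its levels in sham were -1.04, -0.91, -1.02 and -1.06, and in untreated -1.0, 3.33, 0.14 and 4.17. Untreated array 1 lay among the sham arrays and arrays 2 and 4 far above them, so the groups overlapped. The change was 2.67 ± 0.76 (SE, n = 4 and 4) on the log2 scale, with a limma adjusted p of 0.242. This SE, like those below, rests on the spread pooled over all 5 groups. The SD of Selp itself was 2.48 in untreated and 0.06 in sham. F5, coagulation factor V, read 1.08, 1.21, 1.36 and 1.84 in sham and 1.49, 2.80, 3.32 and 3.09 in untreated. Again array 1 fell inside the sham range and arrays 2 to 4 lay above it, for a change of 1.30 ± 0.38 (adjusted p 0.242 by limma).

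Ltbp1, which binds latent TGF-beta, read -3.42, -3.53, -2.89 and -2.45 in sham and -2.85, -1.53, -1.43 and -0.58 in untreated. It was well above background on 1 sham array and 4 untreated arrays, and its change was 1.48 ± 0.49 (adjusted p 0.242 by limma). Tubb1 changed by 1.51 ± 0.55 and Vwf by 0.83 ± 0.34, with limma adjusted p of 0.242 and 0.258. Thbs1, thrombospondin, was the only member whose groups did not overlap (1.46% of all genes were higher without overlap), at -3.44 to -3.07 in sham and -2.99 to -1.42 in untreated. It was not well above background on any sham array, so its sham levels are uncertain. The estimated change was 1.04 ± 0.43 (adjusted p 0.254 by limma). Gp9, Pf4 and Gp1bb had changes of 0.31 ± 0.39, 0.27 ± 0.38 and 0.52 ± 0.36, and none of these passed.

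**Figure D3:**
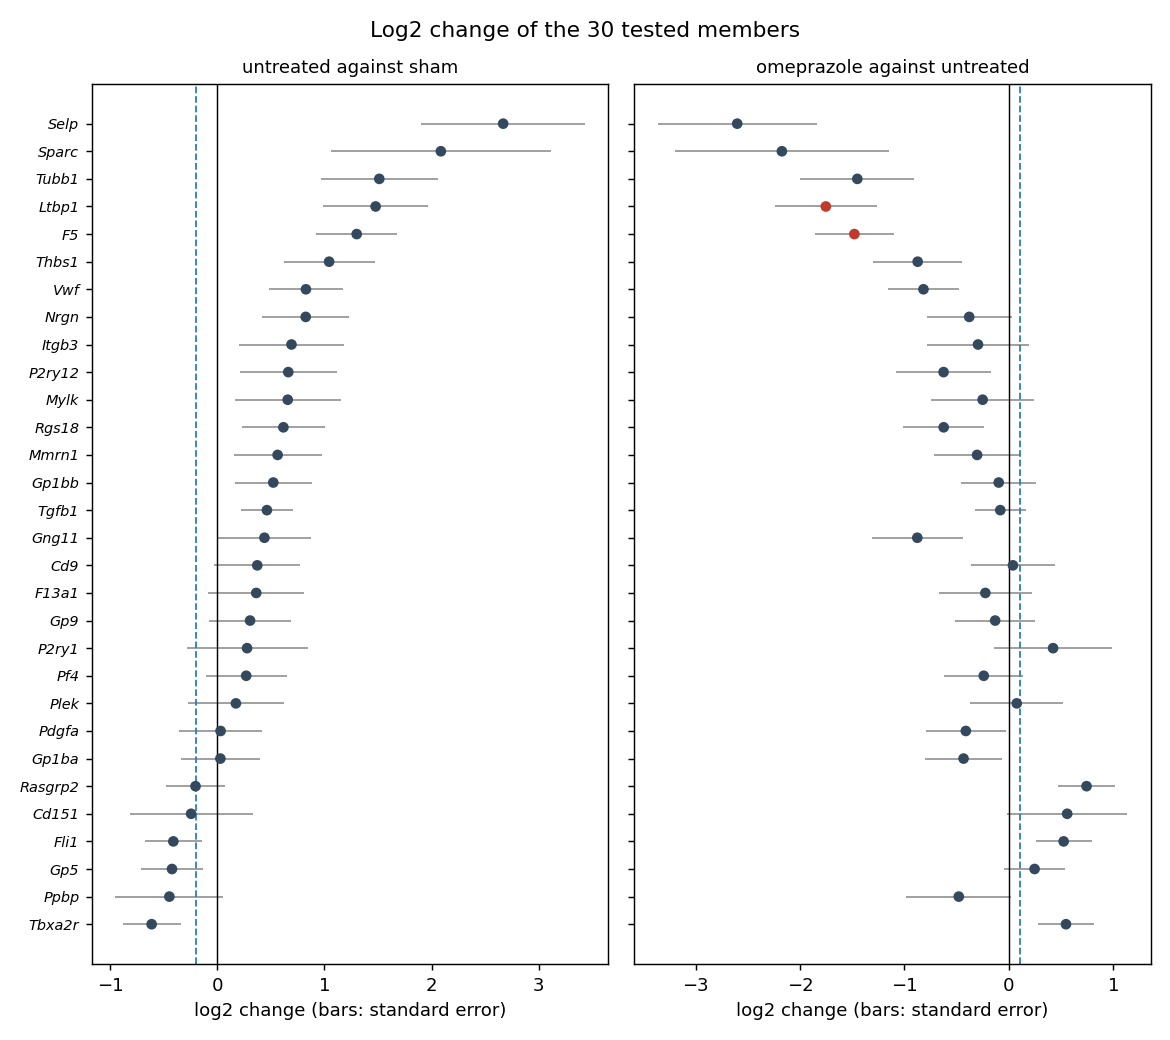
Log2 change of the 30 tested members in untreated against sham (left) and omeprazole against untreated (right), with standard errors as bars, members ordered by the left panel and the dashed line at the median of all genes. Selp, Sparc, Tubb1, Ltbp1 and F5 lie highest on the left, between 1.30 and 2.67, and lowest on the right, where Ltbp1 and F5 (red) passed an adjusted p of 0.05; the panels share the untreated arrays.

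The count of calls turned on 1 rat, for all genes as well as for the members. Untreated array 1 had a member median of -0.45, in the sham range of -0.63 to -0.03. Without this array 5 of 30 members passed as higher (F5, Ltbp1, Selp, Tubb1 and Vwf). Of all genes 12% were then called, higher and lower counted together, against 0.00656% with all arrays. The untreated arrays also differed in other cell markers, given as the mean deviation of a marker list from its average over the arrays. Array 2 was at -2.42 for T cells, -2.34 for B cells and 1.42 for neutrophils, arrays 3 and 4 were at -1.67 and -1.48 for erythroid cells, and arrays 2 and 4 were at 0.92 and 1.15 for monocytes. Sham arrays ran from -0.74 to -0.23 for monocytes. The part of these cells in the changes of Selp and F5 was not tested. Sparc, a matrix-binding protein, was high at 4.49 on array 2 and at 0.17 on array 4, against -3.06 to -1.70 in sham (change 2.09 ± 1.03, adjusted p 0.275 by limma).

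Among the further platelet genes 0 of 89 passed in this comparison. The smallest p values belonged to Dab2, an adaptor protein (2.59 ± 0.69), and App, the amyloid precursor protein that platelets store (1.22 ± 0.35), both with an adjusted p of 0.242 by limma.

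Omeprazole-treated rats were set against untreated rats, on different slides. F5 and Ltbp1 were called lower, 2 of 30 members, with 4.18% of all genes called and 3.83% called lower. With omeprazole F5 read 0.70, 1.20, 1.06 and 1.81, below the 3 highest untreated arrays and overlapping array 1 at 1.49. F5 fell by 1.48 on the log2 scale (SE 0.38, adjusted p 0.0273 by limma). Ltbp1 read -2.89, -4.21, -3.15 and -3.14, all below the lowest untreated array at -2.85, and it was the only member without overlap (4.98% of all genes were lower without overlap). Ltbp1 fell by 1.75 (SE 0.49, adjusted p 0.048 by limma), and it was well above background on 2 omeprazole arrays.

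These calls were close to the threshold. Across 20 refits that left out 1 array each, the adjusted p of F5 ran from 0.00149 to 0.102 and the call was lost in 6, those without untreated arrays 2, 3 or 4 or omeprazole arrays 1, 2 or 3. That of Ltbp1 ran from 0.00741 to 0.204 and the call was lost in 16. With normexp background correction the change of Ltbp1 was -0.54 in place of -1.75.

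Selp read -1.28, -0.92, -0.94 and -0.64 with omeprazole, below untreated arrays 2, 3 and 4 and on both sides of array 1, and its change was -2.60 ± 0.76 (adjusted p 0.0633 by limma). All 12 tested alpha-granule genes had a change below 0, with a median of -0.65 against 0.10 for all genes. Over the 30 members the median was -0.30, and 8 had a change above 0, against 58.3% of all genes. Tubb1 changed by -1.45 ± 0.55 and Vwf by -0.82 ± 0.34 (limma adjusted p 0.187 and 0.244). The dimmer Vwf probes changed by -0.83 and -1.91, the latter well above background on 3 untreated arrays and 1 omeprazole array. In the other direction Rasgrp2 had a change of 0.74 ± 0.28 (adjusted p 0.179 by limma). Untreated against sham shares the untreated arrays with this comparison, so opposite signs in the pair are no separate support for either. Among the marker lists 1 of 13 monocyte genes was called lower, against 3.83% of all genes. Of the 13, 8 had a change below 0 and 5 above 0, with a median of -0.47. Changes were above 0 for 14 of 15 erythroid, 13 of 15 neutrophil, 12 of 14 T cell, 10 of 11 B cell, 3 of 7 NK cell and 5 of 9 endothelial genes, against 58.3% of all genes. The part of these cells in the changes of the members was not tested.

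**Figure D4:**
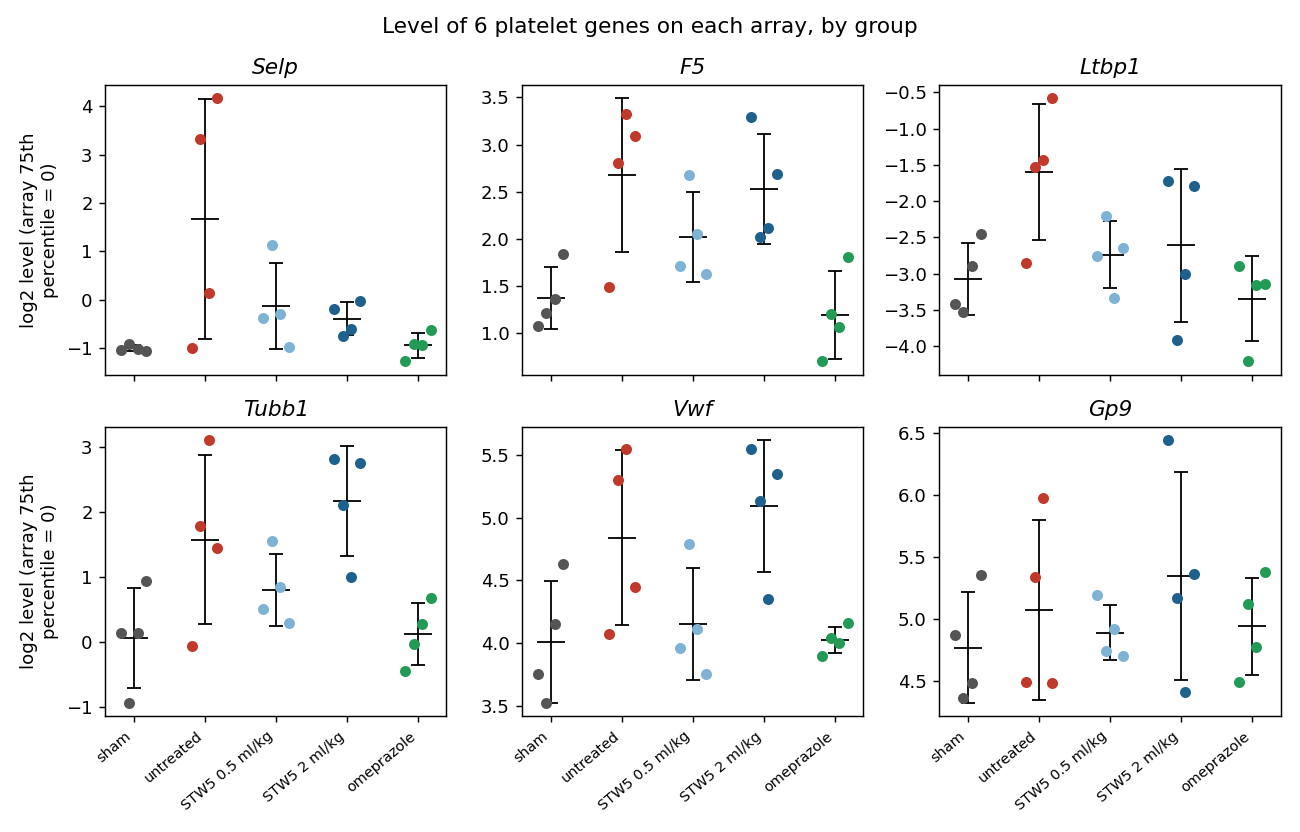
Level of Selp, F5, Ltbp1, Tubb1, Vwf and Gp9 on each array (points, log2 with 0 at the array's 75th percentile), with the group mean and SD (bars, n = 4). Untreated array 1, the leftmost red point, lies in the sham range for Selp and F5, and the omeprazole arrays of F5 run from 0.70 to 1.81.

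Against sham, omeprazole gave 0 of 30 members called by limma, against 4.73% of all genes, and 0 of 30 at an unadjusted p below 0.05, against 14.3%. The members with the smallest p values were Rasgrp2, at 1.78 to 2.11 in sham and 2.34 to 2.71 with omeprazole, Ppbp and Tgfb1, a growth factor stored in the granule. Their changes were 0.54 ± 0.28, -0.93 ± 0.50 and 0.38 ± 0.24, with limma adjusted p of 0.405, 0.46 and 0.577. Rasgrp2 and P2ry1, an ADP receptor, did not overlap between the groups, 2 of 30 and both higher, against 6.81% of all genes.

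The mean of both STW5 doses, which does not depend on which dose title is right, was set against untreated. None of the 30 members passed by limma, nor did any gene (0% called), and 3 members, all lower, had an unadjusted p below 0.05, against 3.85% of all genes. Selp read -0.99 to 1.13 at 0.5 ml/kg and -0.76 to -0.02 at 2 ml/kg, and its change was -1.92 ± 0.66. Ltbp1 changed by -1.08 ± 0.42 and Sparc by -2.10 ± 0.89, and the limma adjusted p of these genes ran from 0.485 to 0.498.

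Compared with sham, 0 of 30 members and 0% of all genes passed by limma for the mean of both doses, and 5 members, all higher, had an unadjusted p below 0.05 against 4.81% of all genes. Tubb1 had levels of -0.95 to 0.93 in sham, 0.29 to 1.56 at 0.5 ml/kg and 0.99 to 2.82 at 2 ml/kg, a change of 1.42 ± 0.47. The groups overlapped. Rgs18 changed by 0.99 ± 0.33 and F5 by 0.90 ± 0.33, and the limma adjusted p of the 3 genes ran from 0.427 to 0.463. The members' median change was 0.44, against -0.07 for all genes.

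As titled, the arrays of 2 ml/kg were then set against those of 0.5 ml/kg, on 1 slide. No member passed by limma (0 of 30, 0% of all genes), and 5 members, all higher, had an unadjusted p below 0.05 against 19.7% of all genes. Vwf read 3.75 to 4.79 at 0.5 ml/kg and 4.35 to 5.55 at 2 ml/kg, a change of 0.94 ± 0.34, and Tubb1 changed by 1.37 ± 0.55 and Pdgfa by 0.90 ± 0.39 (limma adjusted p 0.115 to 0.156). The dimmer Pdgfa probe went the other way, at -0.66, and was well above background on 2 arrays of 0.5 ml/kg and 0 of 2 ml/kg. If the titles are exchanged, as the deposited value table has them, every sign turns. Scaled to the spike-in probes, Vwf and Pdgfa also turned, to -0.32 and -0.37.

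Over all 5 groups at once, limma's F test called 1 of 30 members, F5 (adjusted p 0.0436), against 5.91% of all genes. This call was lost in 6 of 11 other settings and in 12 of 20 refits that left out 1 array, with adjusted p of up to 0.10 and 0.0962. Tubb1 was next at 0.0559. The F test's adjusted p was 0.731 for Gp9 and 0.207 and 0.274 for Nrgn and Gp1bb, the members with the highest r to it.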

How the data were processed

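Total RNA from whole blood was hybridised to 1-colour Agilent arrays, 1 per rat. The deposited scanner files hold spot intensity from Agilent Feature Extraction 10.7.3.1, background-subtracted and not normalized between arrays, per the file headers. A value table that the authors deposited gives each spot's ratio to its array's median, a scaling worked out here by comparison with the scanner values. It was used as an alternative only.

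Spots marked as outliers were left out and spots of a probe averaged. Levels were the deposited intensity in log2 minus that of the array's 75th percentile over 58717 non-control spots. Tests covered 17236 probes that cleared background on 4 arrays or more, with the brightest standing for each of 15234 genes. No spot was saturated. A mean for each of the 5 groups entered 1 model of the 20 arrays in limma (version 3.58.1, R version 4.3.3, 15 residual degrees of freedom), with Benjamini-Hochberg adjustment over all genes, two-sided, and a threshold of 0.05. Adjusted p values in the text come from limma. Relations with Gp9 used 100000 permutations within groups. The fits were tested on simulated data.

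Named in each comparison were members that passed, had an unadjusted p below 0.01 or were among the 3 with the smallest p. Members named beyond that were chosen after their values were seen. The members and lists were chosen with earlier results of these data known. Itga2b had been set as the reference gene of the relation, and Gp9 was its stated substitute. Alternatives covered background correction, scaling, filters, probe choice, array weights, replicate block and left-out arrays. The number of arrays limits the precision. A gene of the further platelet list is not reported here.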

Additional observations from a re-analysis of the deposited data

Results flagged for a closer look

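A check for 1 array far from the other 3 of its group was made on 60 groups of values, and 2 were marked, where chance marks about 1 in 20. Both concern Pdgfa, a platelet-derived growth factor chain, read by a probe with 1 spot on each array. In sham, array 2 had a level of -1.94 and the others lay between -1.21 and -1.07. In untreated, array 3 had a level of -2.80 and the others lay between -0.93 and -0.60.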

How the results depend on the processing

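The relation with Gp9 kept its count within 1.5 times with normexp (16 of 29 members) and moved to 6 with Pf4 as the reference; without 1 array it ran from 11 to 18. Members called in omeprazole against untreated were 2, and 0 with normexp, median scaling, spike-in scaling, no filter on dim probes, the authors' value table or only the groups compared. They were 1 with quantile normalization, the 75th percentile of detected probes, probes above background on 20 arrays or the Gp9 level as a covariate, and 0 to 4 without 1 array. The replicate block raised them to 3, with Selp at -2.60 (adjusted p 0.0495 by limma). With the mean of all tested probes they were also 3, F5, Ltbp1 and Vwf, with 4.13% of all genes called. Same-numbered arrays of different groups had correlations of -0.437 to 0.589, with a median of 0.09 (19 of 40 above 0.1). Arrays with different numbers had -0.649 to 0.595, with a median of -0.04 (37 of 120 above 0.1). These ranges overlap widely, so they do not settle whether the replicate numbers pair the rats.

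Between the doses of STW5, 2 members were called with normexp (15.1% of all genes) and 10, all lower, with spike-in scaling (50.8%), which moved the median of all genes from 0.18 to -1.08 here and from -0.19 to 0.37 in untreated against sham. Vwf and Pdgfa turned to -0.32 and -0.37 with it. With the authors' value table, whose STW5 columns hold the other dose, Vwf, Pdgfa and Tubb1 turned to -0.79, -0.75 and -1.22. The F test called 0 with normexp, quantile, median or detected-probe scaling, no filter or the value table, 2 with the mean of all tested probes, 7 with spike-in scaling (39% of all genes), and 0 to 5 without 1 array. Omeprazole against sham gave 1 with only the groups compared (9.68% of all genes).

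limma's default array weights stopped before converging, with a weight of 28.8 on 1 omeprazole array, and were not used. Weights estimated gene by gene, added after that, still put 9.01 on that array. With them 2 members were called in untreated against sham (2.72% of all genes), 4 in omeprazole against untreated (9.31%), 3 in omeprazole against sham (27.3%), 1 for STW5 against sham (2.24%) and 9 by the F test (38.7%). Slide as a random block could not be fitted beside group means. Without 1 array, calls ran from 0 to 5 in untreated against sham, 0 to 1 in STW5 against untreated and 0 to 1 between the doses, and stayed at 0 in both treatments against sham. Member medians relative to all genes ran, without 1 array, from 0.364 to 0.949 in untreated against sham, -0.684 to -0.158 in omeprazole against untreated, -0.301 to 0.162 in STW5 against untreated, -0.148 to 0.366 between doses, -0.0112 to 0.302 in omeprazole against sham and 0.325 to 0.659 in STW5 against sham.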
